A study of Rattus norvegicus with 6 samples.

Results

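Immediate early genes of the Fos, Jun and Egr families were followed in the metrial gland of pregnant rats held in ambient air or in low oxygen. The set holds 10 genes, Fos, Fosb, Fosl2, Jun, Junb, Egr1, Egr2, Egr3, Ier2 and Atf3, out of 14217 genes that carried a probe set with a single gene symbol. Members were chosen by name, and every probe set annotated to one of them was taken, which gave 15 probe sets. The metrial gland lies in the uterine wall beneath the placenta and holds maternal natural killer cells, decidual stroma, arteries and the trophoblast that invades them. All animals were pregnant rats whose tissue was collected on gestation day 13.5. The 3 ambient arrays came from rats breathing 21% oxygen and the 3 hypoxia arrays from rats kept at 10.5% oxygen starting on day 6.5. The labels used here give no strain or age. Nothing in the labels says that the replicates of a group were separate animals. The p-values therefore rest on a spread among samples that may be technical.

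Immediate early genes are transcribed within minutes of a signal without the need for new protein, and their RNA is lost again quickly. Fos proteins pair with Jun proteins through leucine zippers to form the transcription factor AP-1, which binds DNA as a dimer. Egr proteins are zinc finger factors that bind GC-rich sites. Serum response factor, bound at a CArG box together with an Ets factor such as Elk1, carries signals of the ERK kinases to many of these promoters, and CREB does so at cyclic AMP response elements (CRE). In the uterus the family is known for rapid responses to steroid hormones, growth factors and the implanting embryo.

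Egr1 and Egr2 were the members that passed the test as lower, and the DNA just before their start sites is shown here because it carries the same pair of elements in both. RefSeq (assembly GRCr8) gave a promoter window for 6 of the 10 members, Fosb, Fosl2, Junb, Egr1, Egr2 and Ier2. Fos, Jun, Egr3 and Atf3 had no entry in that table. The 250 bases before each start were searched on both strands. Bases -88 to -59 before the start are written 5′ to 3′ on the gene's strand, with CArG boxes and CRE core sites (TGACG, or CGTCA when read from the other strand) in capitals. The Egr1 stretch is chr18:26736990-26737019 on the plus strand, that of Egr2 chr20:21054500-21054529 on the minus strand and that of Ier2 chr19:40399285-40399314 on the plus strand.
Egr1: gcttcCCATATATGGccatgtaCGTCAcgg
Egr2: tcagtCCATATATGGgcagcgaCGTCAcgg
Ier2: ccctctgggcgtggcgtttcagTGACGTCA

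The Egr1 and Egr2 stretches held an identical CArG box at -83 to -74 and a CRE core site at -66 to -62 on the opposite strand. Egr1 had a second CArG box at -105 to -96 and a second CRE core site at -135 to -131. Ier2 held no CArG box and carried the full CRE TGACGTCA at -66 to -59, which overlaps 2 core sites. Of all 33469 windows, 1.5% held a CArG box, 1.59% the full CRE, 18.2% a CRE core site and 0.23% both a CArG box and a core site. Neither the AP-1 motif TGANTCA (6.34% of windows) nor the Egr motif GCGNGGGCG (4.29%) was found in the Egr1 or Egr2 window. Fosl2 had the Egr motif at -249 to -241, Junb a CRE core site at -155 to -151, and Fosb none of the motifs. The core site was added to the search after the windows had been seen. A match describes letters and is not a measured binding site. Fos, the member that was higher, had no window, and a link between these elements and the differences was not tested.
The Egr2 window, chr20:21054442-21054691 on the minus strand, is given whole with the same elements in capitals, since Egr2 had the largest difference among the members:
Egr2 window: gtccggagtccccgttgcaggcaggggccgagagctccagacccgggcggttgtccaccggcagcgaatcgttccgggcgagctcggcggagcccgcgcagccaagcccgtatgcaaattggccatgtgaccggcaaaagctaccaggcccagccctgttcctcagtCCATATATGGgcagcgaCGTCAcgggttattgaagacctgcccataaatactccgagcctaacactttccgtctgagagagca

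Expression values are the deposited log2 summaries, 1 per probe set and array, so a difference of 1 is a doubling. Array medians lay between 6.44 and 6.47. Background was gauged from 27 bacterial control probe sets, which had array medians of 3.65 to 3.73 and a highest value of 5.0. Correlations between arrays over the kept probe sets were 0.9889 to 0.9934 within groups and 0.9738 to 0.9834 between groups. Probe sets with a low mean over all 6 arrays, the lowest 40%, were left out of the test, which kept 18625. Of these, 1116, or 5.99%, passed an adjusted p of 0.05 in limma, 4.02% as higher and 1.97% as lower in hypoxia. The count was 270 to 536 without any 1 array but hypoxia replicate 3. As deposited 749 were higher and 367 lower, and after quantile normalization 648 and 521.

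The tested members split. Fos was higher in hypoxia, Egr1 and Egr2 were lower, and the other Jun, Fos and related genes did not pass. Of the 15 probe sets, 12 passed the filter, and 8 of the 10 genes kept at least 1 probe set. Fosb and Egr3 did not. Among these 8 genes 1 rose, 2 fell and 5 did not pass, while 4.02% of all kept probe sets rose and 1.97% fell. In those 5 the difference was negative in 4 (Fosl2, Jun, Junb and Ier2) and positive in 1 (Atf3). Over the 8 genes it was negative in 6, against 49.2% of all kept probe sets. The median difference of the 8 was -0.18, against 0.00 over all kept probe sets. Values of the groups did not overlap in 5 of the 8 genes, 1 of them higher and 4 lower in hypoxia, while 29.9% of all kept probe sets did not overlap, 15.8% as higher and 14.1% as lower. At an unadjusted p under 0.05 there were 5 of the 8, against 23.7% of all kept probe sets. The genes were chosen with earlier results of these data known, and these counts describe them only.

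**Figure D1:**
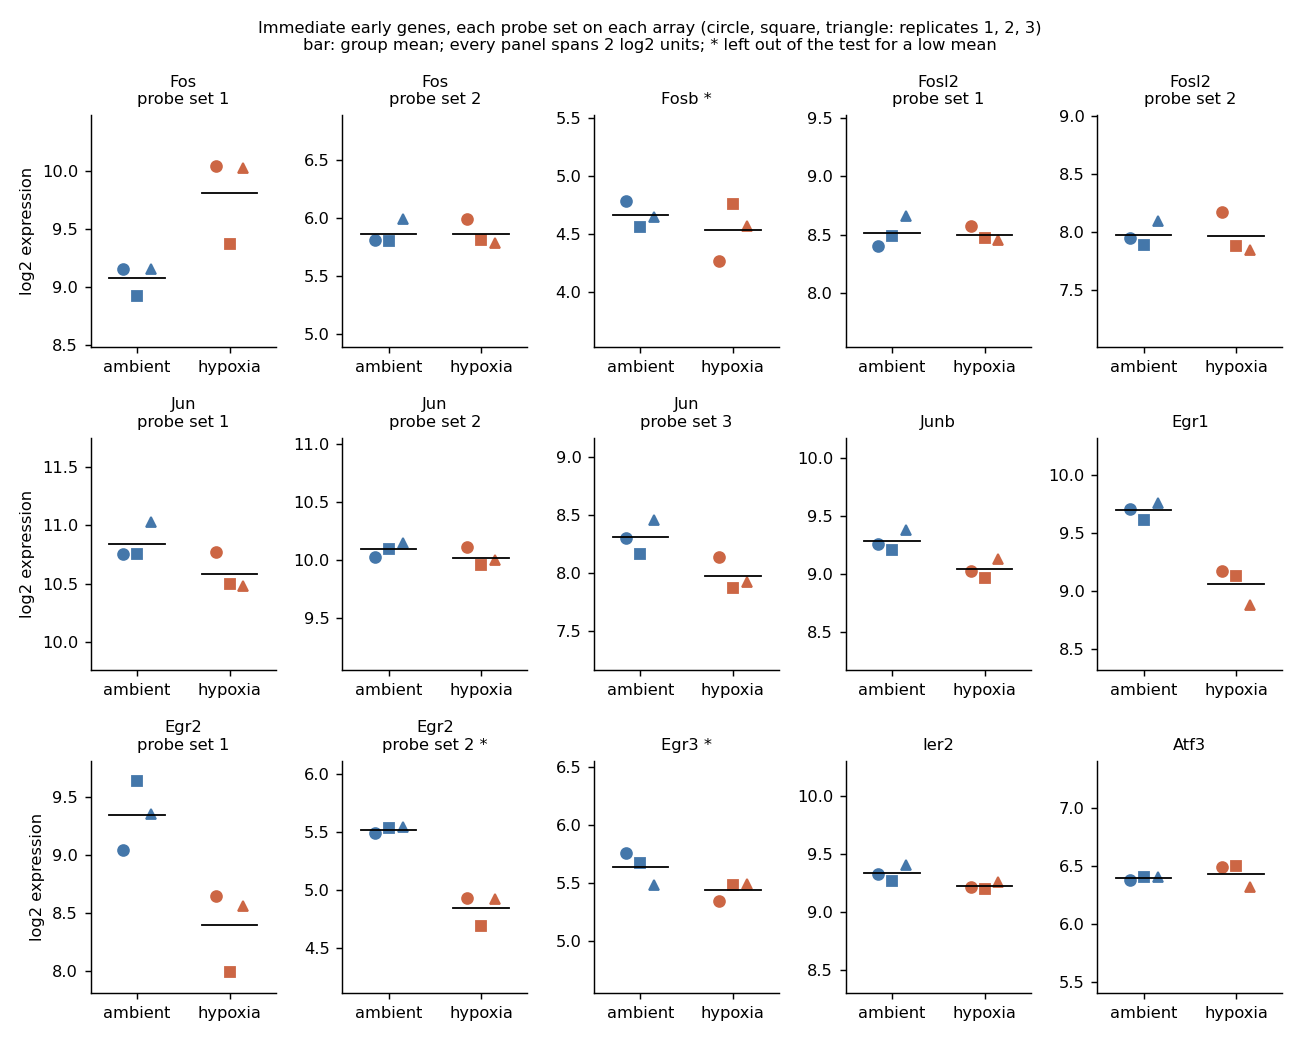
Log2 expression of each of the 15 probe sets on each array, with 1 panel per probe set, ambient in blue and hypoxia in orange, a symbol for each replicate and a bar for the group mean; every panel spans the same number of log2 units. The Fos panel of the brighter probe set shows all hypoxia arrays above ambient, from 9.37 to 10.04, while the Egr1 panel and that of the brighter Egr2 probe set show all hypoxia arrays below ambient.

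Egr1, the zinc finger factor best known as an early growth response gene downstream of ERK signalling, had the smallest p of the tested members. On the ambient arrays it stood at 9.71, 9.61 and 9.76, and on the hypoxia arrays at 9.17, 9.13 and 8.88. Each hypoxia array lay below each ambient array, and hypoxia replicate 3 was the lowest. The group means were 9.69 ± 0.08 and 9.06 ± 0.16 (SD, n = 3 each). Egr1 fell by 0.63 on the log2 scale (SE 0.09, 95% interval -0.85 to -0.42), which is 1.55-fold (limma adjusted p = 0.0121; range 0.00964 to 0.0544 over the alternatives). Its fall was the 152nd largest of the kept probe sets. Without ambient replicate 3 the adjusted p was 0.0544. It lay between 0.017 and 0.0389 without each of the other arrays.

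Egr2, also called Krox20, is known from hindbrain and Schwann cell development and is induced in lymphocytes by antigen receptor signals. It had 2 probe sets, and the brighter one carries the result. There the ambient arrays read 9.04, 9.63 and 9.35 and the hypoxia arrays 8.64, 7.99 and 8.56. The groups did not overlap, and hypoxia replicate 2 stood lowest. The means were 9.34 ± 0.30 and 8.40 ± 0.35 (SD, n = 3 each). Egr2 fell by 0.94 (SE 0.20, 95% interval -1.40 to -0.49), or 1.92-fold (limma adjusted p = 0.037; range 0.0255 to 0.117 over the alternatives fitted to this probe set). That was the 49th largest fall among the kept probe sets. The adjusted p rose to 0.0995 without ambient replicate 2, to 0.117 without ambient replicate 3, to 0.0583 without hypoxia replicate 1 and to 0.0683 without hypoxia replicate 2, with a difference between -1.09 and -0.74 in every leave-one-out fit.

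The dimmer Egr2 probe set was below the filter, at 5.49, 5.53 and 5.54 in ambient and 4.93, 4.69 and 4.92 in hypoxia. It stood above every bacterial control of the same array on all 3 ambient arrays and on 1 of the 3 hypoxia arrays. The hypoxia values lie near background, so the size of a difference cannot be read from this probe set.

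Egr3, a close relative induced with Egr2 in lymphocytes, had 1 probe set that was left out for its low mean. It read 5.76, 5.67 and 5.48 in ambient and 5.35, 5.48 and 5.49 in hypoxia. The groups overlapped at ambient replicate 3. In the fit without a filter, in which 3.46% of 31042 probe sets passed, the difference was -0.20 (SE 0.10, 95% interval -0.43 to 0.03, limma adjusted p = 0.328).

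Fos, the founding partner of Jun in AP-1, was the member that was higher. At its brighter probe set the ambient arrays stood at 9.15, 8.92 and 9.15 and the hypoxia arrays at 10.04, 9.37 and 10.02. All hypoxia arrays were above all ambient arrays, and hypoxia replicate 2 lay between the ambient arrays and the other 2 hypoxia arrays. The means were 9.08 ± 0.13 and 9.81 ± 0.38 (SD, n = 3 each). Fos rose by 0.74 (SE 0.17, 95% interval 0.33 to 1.14), or 1.66-fold, and its limma adjusted p of 0.0494 was just under the threshold. The call held only in part of the alternatives. It was lost without any 1 array but hypoxia replicate 2 (0.0966 to 0.136) and passed without that array (0.00606, difference 0.95). It was also lost with quantile normalization (0.0506), with linear values plus 64 (0.0504), with no filter (0.0501) and with no variance trend (0.0625).

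A second Fos probe set did not follow the first. It read 5.81, 5.80 and 5.99 in ambient and 5.99, 5.81 and 5.79 in hypoxia, above every bacterial control on all 6 arrays. The groups overlapped, and the difference was -0.0066 with a 95% interval from -0.23 to 0.22 (limma adjusted p = 0.976). Its means, 5.87 in ambient and 5.86 in hypoxia, lay just above the lowest kept mean of 5.74. They were under every array median (6.44 to 6.47). The interval does not reach the difference of 0.74 at the brighter probe set. Whether the low signal had a part in this was not tested. The mean of both probe sets gave 0.36 (adjusted p = 0.117). The rise of Fos therefore rests on 1 of its 2 probe sets.

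Fosl2, which encodes the Fos relative Fra-2, was at 8.40, 8.49 and 8.66 in ambient and 8.57, 8.47 and 8.45 in hypoxia. The groups overlapped, with a difference of -0.02 and a 95% interval from -0.22 to 0.18 (limma adjusted p = 0.925). Its second probe set gave -0.01 (95% interval -0.26 to 0.24). Fosb, the remaining Fos family member, was at 4.27 to 4.78 on the 6 arrays, below the highest bacterial control of the same array on all of them, so no difference is given for it.

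Jun, the main partner of Fos, had 3 probe sets, all with a negative difference that did not pass. The brightest stood at 10.75, 10.75 and 11.03 in ambient and at 10.77, 10.50 and 10.48 in hypoxia. Hypoxia replicate 1 lay among the ambient arrays. The difference was -0.26 (SE 0.10, 95% interval -0.50 to -0.02, limma adjusted p = 0.184). At the other probe sets it was -0.07 (adjusted p = 0.557) and -0.33 (adjusted p = 0.112), and only in the latter did the groups not overlap. These probe sets thus shared a sign and differed in size.

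Junb, a Jun relative that can restrain Jun, stood at 9.26, 9.21 and 9.38 in ambient and at 9.03, 8.97 and 9.13 in hypoxia. The groups did not overlap. The difference of -0.24 (SE 0.08, 95% interval -0.42 to -0.07) did not pass over all probe sets, with a limma adjusted p of 0.105 and a range of 0.0787 to 0.274 over the alternatives.

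Ier2, a small nuclear protein of the immediate early response, was at 9.33, 9.27 and 9.41 in ambient and 9.22, 9.20 and 9.26 in hypoxia. The groups were separate by a narrow margin, and the difference was -0.11 (95% interval -0.26 to 0.04, limma adjusted p = 0.35). Atf3, a stress-induced bZIP factor of the ATF family, stood at 6.38, 6.41 and 6.41 and at 6.49, 6.50 and 6.32. These values overlapped, with a difference of 0.04 (95% interval -0.16 to 0.24, limma adjusted p = 0.82; the difference was 0.0054 to 0.10 with 1 array left out).

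**Figure D2:**
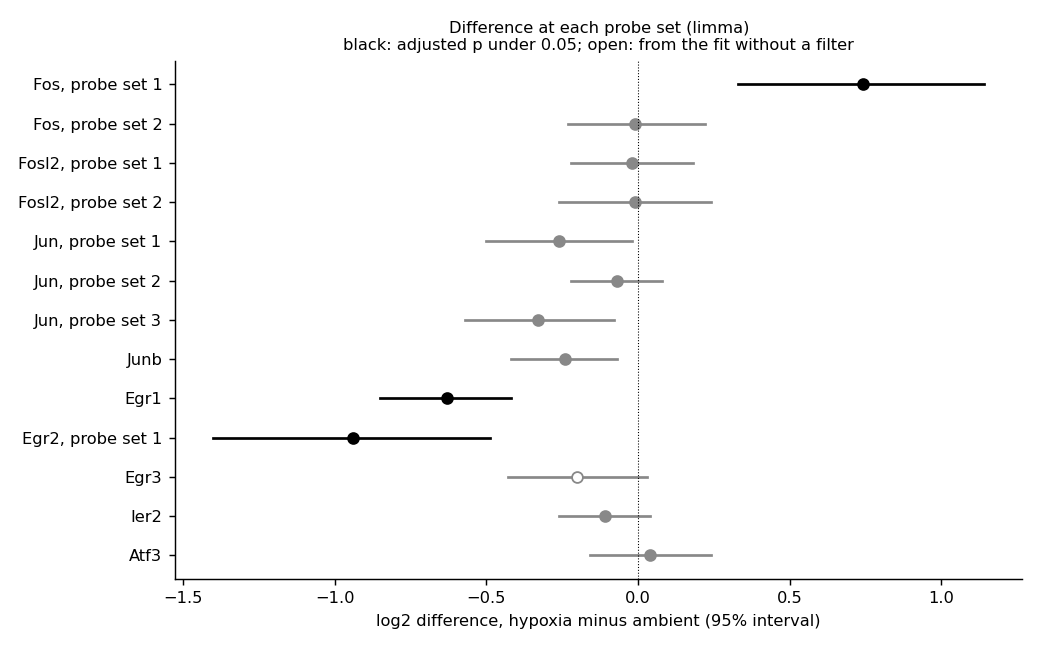
Log2 difference, hypoxia minus ambient, at each probe set that stood above every bacterial control on all 6 arrays, which leaves out Fosb and the dimmer Egr2 probe set, with its 95% interval from limma; black marks an adjusted p under 0.05 and the open circle of Egr3 comes from the fit without a filter. The Fos interval of 0.33 to 1.14 lies above zero at the brighter probe set only, and those of Egr1 and of the brighter Egr2 probe set lie below it. The intervals of Junb and of the brightest and dimmest Jun probe sets also lie below zero, without passing the adjusted threshold.

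The members also varied among the arrays of a group. Ambient replicate 3 was the highest ambient array in 7 of the 8 tested genes, as it was in 37.2% of all kept probe sets. Egr2, highest on ambient replicate 2, was the exception. Hypoxia replicate 1 was the highest hypoxia array in 5 of the 8 and the lowest in 0, against 32% and 28% of all kept probe sets. Hypoxia replicates 2 and 3 each held the lowest hypoxia value in 4 of the 8, against 36.5% and 35.6% of all kept probe sets. Fos and Egr2 were among those lowest on hypoxia replicate 2. These 2 genes moved in opposite directions between groups, so on that array Fos was nearest to ambient and Egr2 farthest from it.

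**Figure D3:**
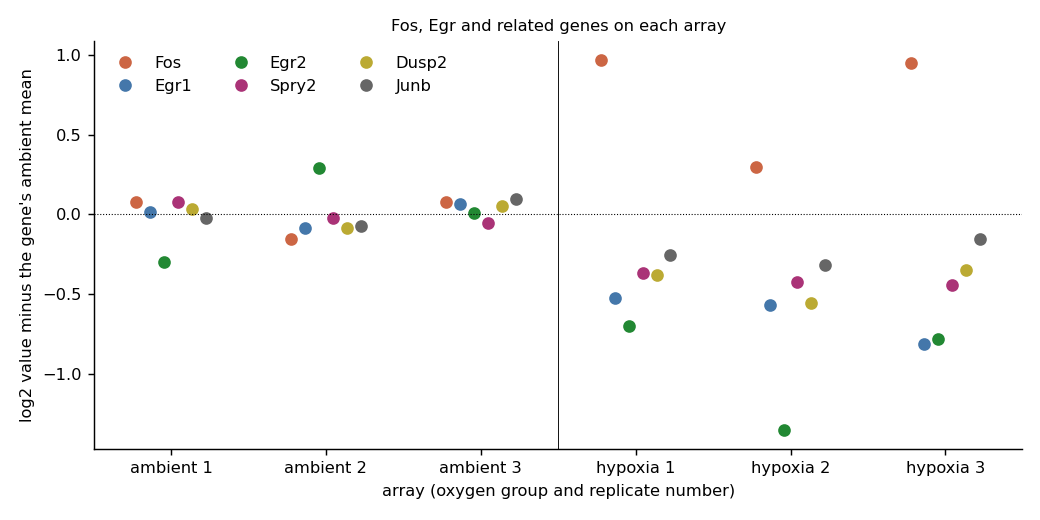
Log2 value minus the gene's own ambient mean on each of the 6 arrays for Fos, Egr1, Egr2, Junb, Spry2 and Dusp2, with 1 colour per gene. On every hypoxia array Fos lies above zero, and the other 5 genes lie under it.

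Genes around this family were read from 4 lists. Of these, the list of genes that restrain ERK signalling or immediate early transcripts held the 2 that passed the test. Of 14 such feedback regulators on the array 13 were tested, and 2 fell (1.97% of all kept probe sets did), 0 rose and 11 did not pass. Their median difference was -0.23, against 0.00 over all kept probe sets. It was negative in 12 of the 13, against 49.2% of all kept probe sets, with non-overlapping lower values in 7, against 14.1%. Spry2, a Sprouty inhibitor of receptor tyrosine kinase signalling, stood at 7.50, 7.40 and 7.37 in ambient and 7.06, 7.00 and 6.98 in hypoxia. It fell by 0.41 (SE 0.08, limma adjusted p = 0.0285). Dusp2, a nuclear phosphatase of MAP kinases prominent in activated leukocytes, read 8.52, 8.40 and 8.54 in ambient and 8.11, 7.93 and 8.14 in hypoxia, and fell by 0.43 (SE 0.09, adjusted p = 0.0319). Neither gene overlapped between groups. The call of Spry2 was lost without any 1 array (0.0552 to 0.08), and that of Dusp2 without any 1 array but hypoxia replicate 3 (0.0641 to 0.114).

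Further feedback regulators are named here after their values were seen. Dusp6, the ERK phosphatase, differed by -0.31 (limma adjusted p = 0.103) at its brightest probe set and by -0.18 (0.169) and -0.49 (0.246) at others. Spry4 differed by -0.29 (0.114), and Dusp1 by -0.15 (0.148) at its brighter probe set and -0.38 (0.0888) at another. Nab1, a corepressor that binds Egr proteins, differed by -0.25 at its brighter probe set (adjusted p = 0.127) and passed at a second one, by -0.41 (0.0468). That call was lost with no filter (0.0534), with no variance trend (0.0547), with array weights (0.061) and without any 1 array (0.0638 to 0.156). Nab2, the other Egr corepressor, differed by -0.02 (0.886; -0.07 to 0.02 with 1 array left out), and Dusp5, the exception in sign, by 0.13 (0.649; 0.03 to 0.28).

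The other 3 lists had 0 calls by limma. Among relatives and partners in AP-1, 11 of 13 on the array were tested, with a median of -0.06. At an unadjusted p under 0.05 there were 3 of the 11, against 23.7% of all kept probe sets. Atf5, a stress-related bZIP factor, was at 8.97, 8.54 and 8.72 in ambient and 9.34, 9.39 and 9.07 in hypoxia, a difference of 0.53 (SE 0.13, adjusted p = 0.0512; range 0.0299 to 0.156 over the alternatives). Batf, an AP-1 factor of lymphocytes, differed by -0.50 (SE 0.12, adjusted p = 0.0533; range 0.0262 to 0.145). Without 1 array Atf5 passed in 2 of the 6 fits, those without ambient replicate 1 (0.0424) or hypoxia replicate 3 (0.039). Jund (-0.07) and Fosl1 (-0.06), the remaining Jun and Fos relatives, had adjusted p of 0.831 and 0.722, and both changed sign without ambient replicate 3 (0.07 and 0.02), Jund also without hypoxia replicate 1 (0.05).

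Other immediate early genes were split in direction. Of 31 on the array 28 were tested, with a negative difference in 13 and a median of 0.01. An unadjusted p under 0.05 was reached by 5 of the 28, against 23.7% of all kept probe sets. Pim1, a kinase induced by cytokines, differed by -0.53 (SE 0.13, limma adjusted p = 0.0564; range 0.0218 to 0.175 over the alternatives) and Bhlhe40, a circadian and hypoxia-inducible repressor, by -0.58 (SE 0.16, adjusted p = 0.07; range 0.0071 to 0.205). Pim1 passed without hypoxia replicate 1 (0.0218) and Bhlhe40 without ambient replicate 2 (0.0448). Nr4a1, an orphan nuclear receptor often induced beside Egr1, stood at 7.74, 7.78 and 7.76 and at 7.79, 7.78 and 7.70, and Myc differed by 0.21 (adjusted p = 0.199; 0.12 to 0.26 with 1 array left out).

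Kinases and factors that signal to these promoters differed little. Of the 13 tested, 4 had a negative difference and the median was 0.07. An unadjusted p under 0.05 was reached by 1 of the 13, against 23.7% of all kept probe sets. Crem, a CRE-binding factor, had the smallest p, with a difference of 0.23 (SE 0.07, limma adjusted p = 0.102), followed by the ERK-activated kinase Rps6ka3 at 0.16 (SE 0.08, adjusted p = 0.271). Srf, which binds the CArG box, stood at 9.78, 9.68 and 9.77 in ambient and 9.78, 9.81 and 9.77 in hypoxia.

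**Figure D4:**
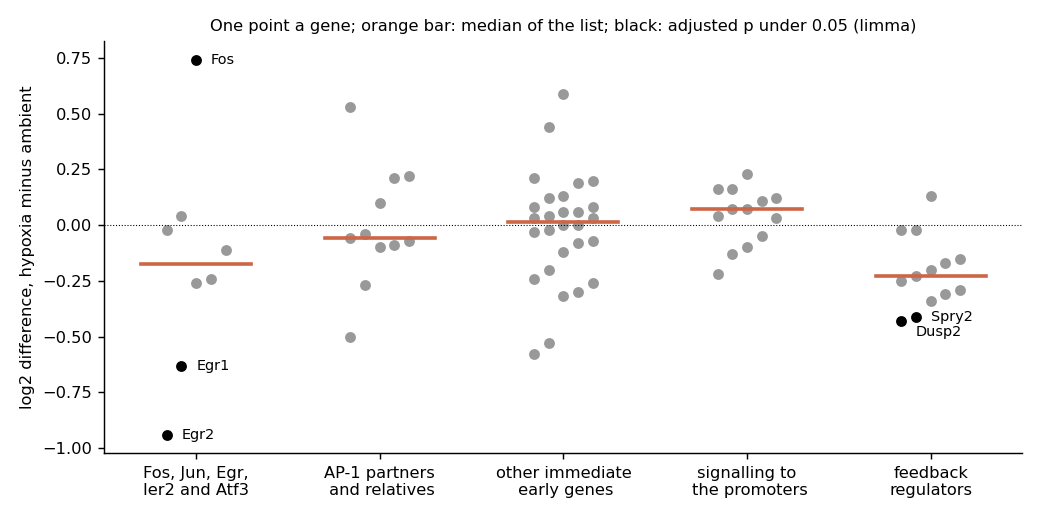
Log2 difference, hypoxia minus ambient, of 1 probe set per gene for the 8 tested members and the 4 related lists; orange bars mark list medians and black points an adjusted p under 0.05. Fos stands above and Egr1, Egr2, Spry2 and Dusp2 below zero, and 12 of the 13 feedback regulators lie below it.

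In this bulk tissue, fewer cells of a type and less RNA per cell cannot be told apart. Cell type markers moved with the groups, and of all kept probe sets 4.02% rose and 1.97% fell. Of 10 uterine natural killer markers 4 fell and 0 rose, and their summed linear signal was 46728 to 53308 in ambient and 38222 to 42176 in hypoxia. Of 10 macrophage markers 1 fell (6214 to 7056 against 5519 to 6066), and of 6 tested epithelial markers 3 fell (856 to 1183 against 495 to 765). Markers of trophoblast rose in 6 of 8 (2336 to 6272 against 11972 to 17414), with Tpbpa and Gcm1 left out for a low mean. Endothelial markers rose in 5 of 9 (6951 to 7307 against 8127 to 8879), red cell markers in 3 of 4 (7243 to 10096 against 17536 to 22076) and neutrophil markers in 2 of 3 tested. The summed neutrophil signal was 887 to 1863 in ambient and 956 to 1277 in hypoxia, and the neutrophil marker Lcn2 differed by -1.93 without passing (limma adjusted p = 0.125), with groups that did not overlap, and by -1.11 without hypoxia replicate 3. Decidual stroma rose in 2 of 10 (49433 to 52116 against 54028 to 67898) and smooth muscle in 0 of 10. Of the smooth muscle markers 1 had an unadjusted p under 0.05 in limma, against 23.7% of all kept probe sets. Without 1 array the calls ranged from 1 to 4 for natural killer, 0 to 3 for epithelial, 3 to 6 for trophoblast and 2 to 5 for endothelial markers. The part of these cell types in the rise of Fos or the falls of Egr1, Egr2, Spry2 and Dusp2 was not tested. The brightest natural killer marker, the granzyme Gzmb, had an ambient mean of 14.47, and the brightest trophoblast marker, the prolactin relative Prl7b1, of 10.95. The lowest ambient means among the tested markers of these lists were 6.41 (Klrd1, natural killer) and 5.76 (Hand1, trophoblast). The brightest markers of the other lists had ambient means of 12.02 (Kdr, endothelium), 13.59 (Des, smooth muscle), 14.37 (Dcn, stroma), 10.74 (Cd14, macrophage), 10.14 (Lcn2, neutrophil), 8.54 (Epcam, epithelium) and 12.93 (Hbb, red cell).

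RNA integrity was read from the beta-actin control probe sets. Their 3' signal exceeded their 5' signal by 0.53, 0.54 and 0.41 in ambient and 0.58, 0.77 and 0.66 in hypoxia (log2). The groups did not overlap (two-sided exact permutation p = 0.1, which is the lowest p possible with 3 arrays a group). Its part in the results was not tested. For GAPDH the same measure was -0.03 ± 0.02 and 0.00 ± 0.05 (SD, n = 3 each; exact permutation p = 0.2).

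The genes whose 6 values followed Fos most closely were described by Pearson correlation with its brighter probe set, among 6909 kept probe sets of other genes with at least median spread. They were Myo1d, an unconventional myosin (r = 0.991), Timp3, a matrix-bound metalloproteinase inhibitor (0.990), Epb41l4a, a membrane skeleton protein (0.988), Tnfaip2, a gene induced by tumour necrosis factor (0.988), and Eva1a (0.986). They were picked for that likeness, which carries no test, and the 6 points share the split between groups. Timp3 shows the pattern, at 6.56, 6.43 and 6.57 in ambient and 7.57, 6.71 and 7.59 in hypoxia, with hypoxia replicate 2 again nearest to ambient.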

How the data were processed

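Total RNA from metrial gland was extracted with Trizol and its cRNA, labelled with biotin, was hybridised to Affymetrix rat arrays of 1 colour. This is per the labels' protocols. The deposited values are log2 summaries, a scale read from their range (2.98 to 14.9). MAS5 and Affymetrix Expression Console are listed, without role or version, per the submitters' processing notes. How the authors corrected background, summarized probes and scaled arrays is not given in the sources used here. A summary fitted per probe set sets how far low signals are compressed.

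Of 31099 probe sets, 57 controls were left out, then the 40% with the lowest mean (12417, below 5.74). Of the 31042 probe sets other than controls, 20826 had 1 symbol, 436 several and 9780 none. All 10 members matched RefSeq (GRCr8) by gene identifier. The 2 groups were compared with limma 3.58.1 under R 4.3.3 (lmFit, eBayes with trend, group as the only term), two-sided, with Benjamini-Hochberg adjustment over 18625 probe sets and a threshold of 0.05. The kept probe set with the highest mean stands for a gene. Genes named were all members, up to 6 called genes of each related list or the 2 of smallest p, the brightest gene of each marker list and the 5 most like Fos. Others were chosen after their values were seen. Members and lists were chosen with earlier results of these data known. Arrays carry no depth, and their number limits the precision.

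Alternatives were quantile normalization, median centring, linear values plus 64, no filter, a 60% filter, no variance trend, a robust trend, array weights, the replicate number as a block, each array left out, and other probe sets of a gene.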

Additional observations from a re-analysis of the deposited data

How the results depend on the processing

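The fall of Egr1 kept its direction in all 15 alternatives and its call in 14, and that of Egr2 its call in 12 of 16, 1 of which averages it with the dim probe set. The rise of Fos kept its call in 6 of 17. The count of members that were higher, 1, was 0 with quantile normalization, with linear values plus 64, with no filter and with no variance trend, and 0 to 1 with 1 array left out. The count that were lower, 2, was 0 to 2 with 1 array left out, with 0 without ambient replicate 3. Over all probe sets, leaving out 1 array gave 226 to 666 higher and 44 to 340 lower, 270 to 1006 in all, and no variance trend gave 241 lower. Signs turned for Fos at its other probe set (-0.0066) and for Fosl2 with array weights (0.0032) or without ambient replicate 3 (0.05) or hypoxia replicate 3 (0.0073); with 1 array left out it ranged from -0.08 to 0.05. Dcn, the brightest stromal marker, at 0.01, turned to -0.0011 with array weights and to -0.0063, -0.02, -0.0026 and -0.0024 without ambient replicate 1, ambient replicate 3, hypoxia replicate 1 and hypoxia replicate 3, where its highest value with 1 array left out was 0.04. For related genes the alternatives were chosen after seeing the data. With 1 array left out, signs also turned for Nab2 (-0.07 to 0.02), Jund (-0.22 to 0.07), Fosl1 (-0.13 to 0.02), Nr4a1 (-0.02 to 0.03, and 0.00093 with array weights) and Ccn1 (-0.08 to 1.02). The actin 3' minus 5' difference of 0.17 ranged over the leave-one-out values from 0.12 to 0.22. The cause of these shifts was not tested.

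The labels give same-numbered arrays of the groups no link besides the number. Their deviations from the group means correlated at 0.0124, 0.0706 and 0.0705, and those of differently numbered arrays at -0.137 to 0.0807. With so few arrays these values cannot settle whether same-numbered arrays were handled together. With the replicate block 1317 probe sets passed, and the same 3 members, Fos (adjusted p = 0.0127), Egr1 (0.016) and Egr2 (0.0465), did. Low signal limits Fosb, Egr3 and the second Egr2 probe set. The second Fos probe set passed the filter with a low mean, and the part of its low signal was not tested.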

Other observations

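Ccn1, a matricellular immediate early gene, was high on a single array. It stood at 8.54 on hypoxia replicate 3 and between 6.34 and 6.70 on the other 5 arrays, so its difference of 0.59 became -0.08 without that array. Its relative Ccn2 was at 13.66 to 13.81 on all 6 arrays.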
